A study of Arabidopsis thaliana with 48 samples.

Results

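The Arabidopsis thaliana double mutant uch1/2 was compared between short days (SD) and long days (LD), with 2 RNA-seq libraries of whole seedlings in each. These 4 libraries were taken by their names from the first of 2 expression tables, out of 48 libraries in the series. The mutant carries the genotype uch1(-/-);uch2(-/-). Its SD seedlings were 14 days old and had 8 h of light a day, and its LD seedlings were 11 days old and had 16 h of light. All seedlings grew on MS plates, and total RNA was extracted with Trizol. Day length and age therefore changed together and cannot be told apart, and the labels give no hour of harvest. The mutant was set beside 4 other genotypes of the same table at the same ages and day lengths, with 2 libraries per group. They were INO80-FL, the ino80 mutant carrying full-length INO80, the ino80 single mutant, the nfrkb1/2/3 triple mutant and wild type (Col-0). The second table held 2 further uch1/2 libraries and 2 further wild-type libraries in SD, for which no separate age is labelled. No label says that libraries of a group came from separate cultures. The p-values therefore measure only the spread between libraries of a group, pooled over all groups of a table, which may be technical. In whole seedlings, fewer cells of a type and less RNA per cell cannot be told apart.

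UCH1 and UCH2 are ubiquitin C-terminal hydrolases, enzymes that cleave ubiquitin from its conjugates, and homologues of the animal enzyme UCHL5 that associates with the INO80 chromatin remodelling complex. INO80 complexes slide nucleosomes and exchange histones at promoters. Plants read day length through a circadian clock in which the morning factors CCA1 and LHY and the evening PRR, TOC1 and LUX proteins repress each other, and through photoreceptors that set the clock and act on growth, flowering and carbon use.

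Values below are adjusted reads, the authors' read counts scaled to a common library size, so that 1 adjusted read stands for about 1 read. Fold changes are SD over LD on the log2(value + 1) scale. Calls rest on limma with Benjamini-Hochberg adjustment at a threshold of 0.05, in one fit over the 36 libraries of the first table. For each gene that fit pools the spread over all 18 groups, so an SE given below is not the spread of the uch1/2 libraries alone. Totals were 19487954 and 19088505 adjusted reads in uch1/2 SD libraries and 20537248 and 20664211 in uch1/2 LD libraries. The 36 libraries spanned 18867187 to 22653356. Replicates correlated across genes at r = 0.994 in uch1/2 SD and 0.987 in uch1/2 LD, the lowest of the 18 groups. Genes are not replicates of each other in such a correlation. No source used here says that counting used strand, so genes that overlap an annotated neighbour may share its reads. Among the genes named below these include ELF3, LUX, RVE1, SPA3, COL2, FLC, LHCB6, CHLI1, CHLI2, PORB, PHS1, PHS2, CT-BMY, COR15B, TT4, SARD1, SYP111 and HSP101.

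The mutated genes were still read. UCH2 (AT1G65650) had 94.3 and 92.3 adjusted reads in uch1/2 in SD and 74.7 and 72.4 in uch1/2 in LD, against 473.9 and 495.5 in wild type in SD and 505.8 and 533.1 in wild type in LD. UCH1 (AT5G16310) had 93.2 and 111.8 in uch1/2 in SD and 90.0 and 80.4 in uch1/2 in LD, against 202.4 and 188.1 in wild type in SD and 180.5 and 203.8 in wild type in LD. Every uch1/2 library lay below every wild-type library for both genes. Within the mutant UCH2 was higher in SD (log2 0.34, SE 0.06, adjusted p = 0.00019), and UCH1 did not pass the test (adjusted p = 0.13). UCH1 shares its locus with 2 overlapping annotated genes, so its residual reads are uncertain.

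Many transcripts of the mutant differed between SD and LD. Of 25638 genes tested, 3953 (15.4%) were higher in SD and 3942 (15.4%) were lower in SD. At least 2-fold changes were fewer, with 794 genes higher and 640 lower, and the median over all tested genes was 0. When each uch1/2 library was left out in turn, 1908 genes remained called higher and 2089 lower in all 4 fits. Fitted to the 4 uch1/2 libraries alone, the comparison called 1777 genes. Scaling libraries to equal totals gave 5505 genes higher and 2740 lower and moved the median of all genes by 0.09 on the log2 scale. In wild type 4698 genes (18.3%) were higher in SD and 4947 (19.3%) were lower. The lists of genes described next were counted against these shares.

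Morning clock genes were mostly higher in SD in uch1/2, with 12 of 14 tested members called higher and 1 lower. Of these calls 10 higher and 1 lower were kept whichever uch1/2 library was left out. The median log2 fold change was 1.34. LHY (AT1G01060), a MYB repressor of evening genes, had 11185 and 9910.5 adjusted reads in SD and 818.8 and 802.4 in LD. Both SD libraries lay more than 10-fold above both LD libraries (log2 3.70, SE 0.09, adjusted p = 7.01e-19). Its partner CCA1 had 7836 and 7515 in SD and 823.2 and 1157 in LD (log2 2.97, SE 0.13, adjusted p = 1.82e-13). The activator RVE8, a related MYB factor that raises evening genes, had 2716 and 2633 in SD and 334.9 and 433.3 in LD (log2 2.81, SE 0.11, adjusted p = 1.02e-14). For none of the 3 did an SD library come near an LD library.

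The RVE8 coactivator LNK2 (AT3G54500) had 16872 and 15423 adjusted reads in SD and 3092 and 3705 in LD (log2 2.25). LNK1 (AT5G64170), LNK3 (AT3G12320) and LNK4 (AT5G06980) were higher in SD by 1.26, 1.64 and 1.05. All 4 LNK genes overlap an annotated neighbour, so their reads are uncertain. RVE1, which links the clock to auxin, had 851.2 and 925.0 in SD and 162.0 and 295.5 in LD (log2 2.01). LCL1, also called RVE4, was higher in SD by 1.42 and RVE2 by 0.98. PRR7, a repressor of CCA1 and LHY, was the member that was lower in SD, with 1679.8 and 1536 in SD and 2081 and 2357 in LD (log2 -0.46). EPR1 did not pass the test, with 178.6 and 145.0 in SD and 127.3 and 258.3 in LD, and its LD libraries lay on either side of the SD ones.

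Evening clock genes mostly went the other way, with 7 of 11 lower in SD and 1 higher, and a median of -0.43. Of these calls 4 lower and 1 higher were kept in all 4 leave-one-out fits, and equal totals gave 3 higher. PRR5, a repressor of morning genes, had 24.1 and 36.8 adjusted reads in SD and 135.0 and 112.6 in LD (log2 -2.01, SE 0.29, adjusted p = 1.19e-05). ELF4 and ELF3 form the evening complex with LUX. ELF4 had 10.3 and 6.32 in SD and 51.1 and 43.2 in LD (log2 -2.40). ELF3 had 272.2 and 337.1 in SD and 525.0 and 494.7 in LD (log2 -0.75). LUX, listed as PCL1, had 284.7 and 290.9 in SD and 401.2 and 375.1 in LD (log2 -0.43). The SD and LD libraries did not overlap for any of these 4. ZTL, the blue-light F-box protein that degrades TOC1 and PRR5, was the member higher in SD, with 1220.4 and 1112 in SD and 778.0 and 899.9 in LD (log2 0.48).

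**Figure D1:**
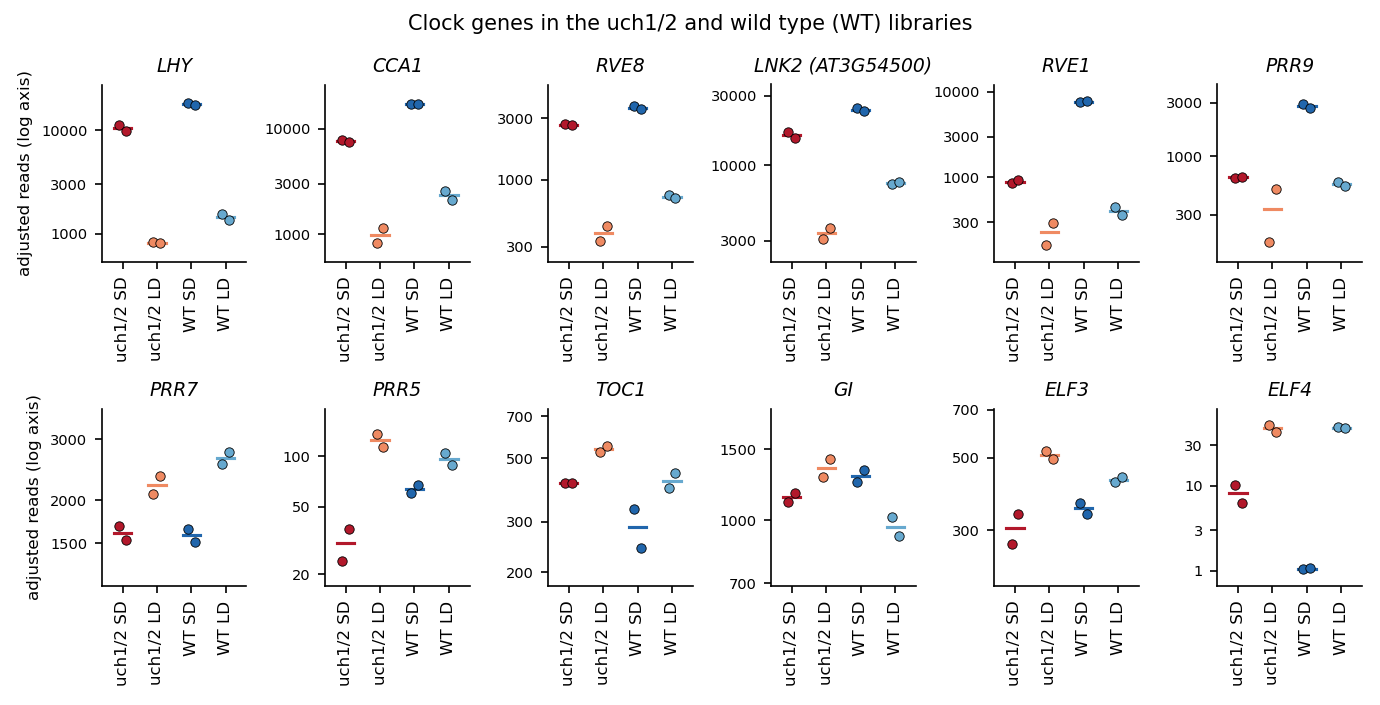
Adjusted reads (log axis) of 12 clock genes in each library of uch1/2 and wild type (WT), in SD and LD. Points are libraries and bars the mean of 2 libraries. LHY, CCA1 and RVE8 stand far higher in SD than in LD in both genotypes, while PRR5, TOC1 and ELF3 stand lower in SD in uch1/2.

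The second table held very different levels of clock genes in SD. Both tables were normalized apart, so levels across them are approximate. There LHY had 14.7 and 12.2 adjusted reads in uch1/2 in SD and 9.43 and 9.48 in wild type in SD, against the 11185 and 9910.5 of uch1/2 in SD in the first table. CCA1 had 46.1 and 42.8 in uch1/2 in SD and 53.3 and 34.9 in wild type in SD of the second table. TOC1 had 4988 and 5628 in uch1/2 in SD and 5493 and 5996 in wild type in SD of the second table, while the first table had 408.0 and 407.9 in uch1/2 in SD. PRR5 had 2351 and 1889 in uch1/2 of the second table. LHY and CCA1 were thus high and TOC1 and PRR5 low in SD libraries of the first table, and the reverse held in the second. The part that clock time at harvest has in the SD against LD differences was not tested.

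The promoters of these clock genes were searched for known clock and light motifs. The G-box (CACGTG) is bound by bHLH and bZIP factors such as PIF and HY5 proteins, and the evening element (AAAATATCT) by CCA1, LHY and RVE8. The CCA1-binding site (AAAAATCT) is a related element, and neither of these 2 motifs contains the other. Windows of 250 bases before to 50 after the annotated start came from RefSeq (TAIR10.1) and were searched on both strands. Motifs are in capitals below, as they read or as their reverse complement on the gene's strand. LHY (chr1:37822-38121, minus strand), CCA1 (chr2:19245341-19245640, plus strand) and RVE8 (chr3:2945989-2946288, plus strand) are shown because they had the 3 largest rises among clock genes. PRR5 (chr5:8358497-8358796, minus strand) is shown because it fell and holds an evening element.
LHY: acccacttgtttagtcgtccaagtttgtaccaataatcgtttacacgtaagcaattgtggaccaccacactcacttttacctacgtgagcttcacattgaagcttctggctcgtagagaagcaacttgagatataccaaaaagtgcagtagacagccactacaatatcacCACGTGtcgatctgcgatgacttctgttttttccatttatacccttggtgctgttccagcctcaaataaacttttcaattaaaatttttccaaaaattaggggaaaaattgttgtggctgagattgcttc
CCA1: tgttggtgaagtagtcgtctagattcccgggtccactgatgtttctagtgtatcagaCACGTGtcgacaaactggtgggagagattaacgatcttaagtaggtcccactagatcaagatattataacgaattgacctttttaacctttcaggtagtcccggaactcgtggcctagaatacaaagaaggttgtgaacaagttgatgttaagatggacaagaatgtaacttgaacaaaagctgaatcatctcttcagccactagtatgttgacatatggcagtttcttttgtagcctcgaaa
RVE8: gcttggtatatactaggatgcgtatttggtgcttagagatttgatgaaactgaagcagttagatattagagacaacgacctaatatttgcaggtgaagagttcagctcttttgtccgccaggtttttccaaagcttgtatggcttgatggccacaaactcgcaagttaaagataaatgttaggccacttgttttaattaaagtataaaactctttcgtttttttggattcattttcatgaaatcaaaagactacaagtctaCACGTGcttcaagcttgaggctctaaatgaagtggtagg
PRR5: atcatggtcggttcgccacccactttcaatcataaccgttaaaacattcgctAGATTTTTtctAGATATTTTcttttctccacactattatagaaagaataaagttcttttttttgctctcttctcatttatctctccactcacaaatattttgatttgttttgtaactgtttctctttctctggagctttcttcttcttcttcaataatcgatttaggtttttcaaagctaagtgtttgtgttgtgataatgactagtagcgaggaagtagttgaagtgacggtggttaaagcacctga
The G-box begins 80 bases before the start in LHY, 193 before it in CCA1 and 11 after it in RVE8. Clock genes with negative changes also held a G-box, namely PRR7 (log2 -0.46) and LUX (log2 -0.43). RVE1, RVE2, LNK1, LNK2, LNK3, PRR9 and BOA held one with positive changes. In PRR5 the evening element lies 187 bases before the start, and a CCA1-binding site lies 198 bases before it. Among the other clock genes, FKF1, TOC1, LUX and EPR1 held an evening element with negative changes (log2 -2.34, -0.40, -0.43 and -0.17). PRR9 and BOA held one with positive changes (log2 1.14 and 0.82), in PRR9 from 26 bases after the start. The changes of EPR1 and BOA did not pass the test. ELF4 fell more than PRR5 (log2 -2.40) and held none of the motifs searched.

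The evening element was in 54 of 640 promoters of genes at least 2-fold lower in SD (8.44%) and in 18 of 794 at least 2-fold higher (2.27%), beside 2.81% of the 25637 tested genes with a promoter window. The G-box was in 110 of 794 promoters of genes at least 2-fold higher in SD (13.9%) and 55 of 640 at least 2-fold lower (8.59%), beside 8.03% of all. The CCA1-binding site was in 5.92% of promoters of genes at least 2-fold higher and 6.25% of those at least 2-fold lower, beside 7.65% of all. These shares describe letters in a fixed window and were not tested.

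**Figure D2:**
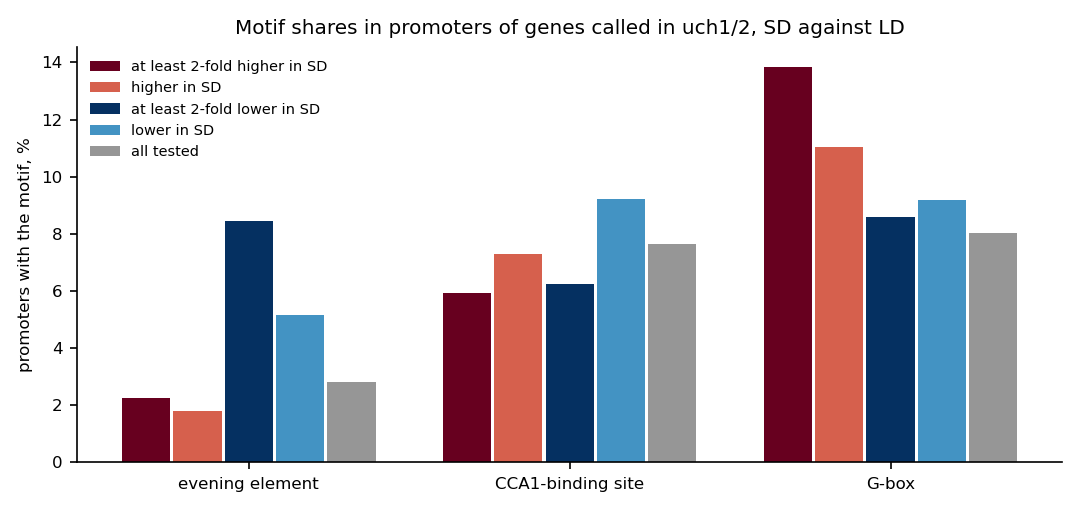
Share of promoter windows (percent) that hold each of 3 motifs, for genes called higher or lower in SD in uch1/2, for those changed at least 2-fold, and for all tested genes. The evening element stands at 8.44% in genes at least 2-fold lower in SD and at 2.27% in genes at least 2-fold higher, and the G-box at 8.59% and 13.9%.

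Light-signalling genes changed in both directions. Of 19 members 11 were higher in SD and 6 lower, and 7 and 3 of these calls were kept in all leave-one-out fits. HY5, the bZIP factor of photomorphogenesis, had 660.1 and 643.8 adjusted reads in SD and 197.6 and 228.2 in LD (log2 1.61, SE 0.11, adjusted p = 1.5e-10). Its homologue HYH had 817.8 and 830.5 in SD and 262.1 and 279.5 in LD (log2 1.60). HFR1, an atypical bHLH protein that holds back PIF factors, had 457.4 and 470.2 in SD and 173.9 and 158.9 in LD (log2 1.47). These 3 factors were each at least 2-fold higher in both SD libraries. SPA1 and SPA3, partners of the COP1 ubiquitin ligase, were higher in SD by 0.57 and 1.1. The shade-induced homeobox gene HB-2, also called ATHB2, was lower in SD, with 936.7 and 835.6 in SD and 1567 and 1352 in LD (log2 -0.72). The early light-inducible genes ELIP1 and ELIP2 were lower, with log2 changes of -0.60 and -1.24.

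B-box zinc finger genes, many of them light-regulated partners of HY5 or COP1, were higher in SD in 9 of 16 tested members and lower in 2, with a median of 0.71, and 5 higher and 2 lower calls were kept in every leave-one-out fit. BBX18 had 785.5 and 669.0 in SD and 147.6 and 206.1 in LD (log2 2.05), and BBX19 had 419.0 and 462.2 in SD and 145.3 and 140.8 in LD (log2 1.61). COL2, a CONSTANS homologue, had 1168 and 978.1 in SD and 330.7 and 385.1 in LD (log2 1.58). COL9, another homologue, was lower, with 50.5 and 41.0 in SD and 86.0 and 88.5 in LD (log2 -0.92). Among 11 photoreceptors 3 were higher in SD and 2 lower. The red-light receptor PHYA was higher by 0.28 and the cryptochrome CRY3 by 0.66, while the blue-light receptors CRY2 and PHOT1 were lower, with log2 changes of -0.29 and -0.47. Scaling to equal totals or quantile normalization called 5 photoreceptors higher.

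The florigen gene FT and its activator CO were read at low levels. FT had 0.914 and 1.84 adjusted reads in SD and a listed 0.00582 and 2.01 in LD of uch1/2, and CO had 5.61 and 4.54 in SD and 5.15 and 11.1 in LD, so neither could be compared at this depth. Of 16 tested activators 3 were higher in SD and 2 lower. The MADS gene AGL24 had 32.9 and 19.9 in SD and 4.11 and 6.03 in LD (log2 2.15, SE 0.38, adjusted p = 0.00013). It was the activator whose call was kept in every leave-one-out fit. SOC1, listed as AGL20, had 190.9 and 257.7 in SD and 165.1 and 270.4 in LD, with overlapping groups. Of 19 repressors 7 were higher (36.8%) and 1 lower, of which 2 higher and 1 lower were kept in every leave-one-out fit. CDF2, a DOF factor that represses CO, had 522.9 and 512.1 in SD and 222.2 and 244.3 in LD (log2 1.15). TOE2, an AP2 repressor of FT, was lower, with 975.7 and 950.2 in SD and 1460.5 and 1427 in LD (log2 -0.58). FLC, the vernalization repressor, had 30.8 and 32.0 in SD and 48.0 and 36.2 in LD and did not pass the test (adjusted p = 0.63).

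Genes of the photosynthetic apparatus were lower in SD. Of 23 tested antenna and Rubisco genes none was called higher and 17 were called lower, 10 of them in every leave-one-out fit, with a median of -0.42. LHCB6, a minor antenna protein, had 31047 and 27601 adjusted reads in SD and 48049 and 47008 in LD (log2 -0.70, SE 0.10, adjusted p = 1.15e-05). LHCA1 of photosystem I had 58153 and 50362 in SD and 83178 and 89465 in LD (log2 -0.67). The near-identical copies CAB1, CAB2 and CAB3 did not pass the test, and reads may be split between them. Under quantile normalization 11 members were called lower and 2 higher, and the sign turned for CAB2, CAB3 and LHCA2. Chlorophyll synthesis was lower in 12 of 17 members, 8 of them in every leave-one-out fit, and higher in 1, with a median of -0.44. PORB, which reduces protochlorophyllide in light, had 2995 and 2947 in SD and 12218 and 11250.3 in LD (log2 -1.98, SE 0.16, adjusted p = 2.36e-09). CHLI1 and CHLI2 of magnesium chelatase were lower, with log2 changes of -0.86 and -1.0.

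Most starch genes, of synthesis and of breakdown, were lower in SD. Of 14 synthesis genes 12 were lower in SD and 1 was higher, with a median of -0.56, and 10 of the lower calls and the higher one were kept in every leave-one-out fit. ADG1, the small subunit of ADP-glucose pyrophosphorylase, had 4218 and 3881 adjusted reads in SD and 10331 and 10775 in LD (log2 -1.38). GBSS1, the granule-bound synthase that makes amylose and is known as a clock output, was the higher one, with 8843 and 7541 in SD and 3465 and 3680.0 in LD (log2 1.19). Of 17 breakdown genes 13 were lower and 2 higher, of which 11 lower and 1 higher were kept in every leave-one-out fit, with a median of -0.98. The phosphorylase PHS2 had 1056 and 900.4 in SD and 3622 and 4344 in LD (log2 -2.02). PHS1 had 2577 and 2389 in SD and 8744 and 8832 in LD (log2 -1.82). The beta-amylase CT-BMY, also called BAM3, rose instead, with 2672 and 2493 in SD and 435.3 and 656.5 in LD (log2 2.27).

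The plastid glucose-6-phosphate translocator GPT2, a sugar-induced gene, had 36.2 and 54.3 adjusted reads in SD and 648.1 and 882.7 in LD (log2 -4.06, SE 0.86, adjusted p = 0.000788). Its promoter window (chr1:22824164-22824463, plus strand) is shown because it holds an evening element 82 bases before the start and the gene was among the 12 named ones with the largest falls.
GPT2: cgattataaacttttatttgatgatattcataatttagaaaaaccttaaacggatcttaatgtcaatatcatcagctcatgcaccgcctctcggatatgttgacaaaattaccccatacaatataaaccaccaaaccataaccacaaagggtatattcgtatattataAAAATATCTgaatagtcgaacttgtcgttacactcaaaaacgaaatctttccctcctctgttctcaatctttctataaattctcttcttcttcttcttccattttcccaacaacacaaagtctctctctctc

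Anthocyanin genes fell deeply in SD. Of 23 flavonoid genes tested 14 were lower in SD and 2 higher, with a median of -1.14, and 11 lower and 1 higher were kept in every leave-one-out fit. LDOX, the anthocyanidin synthase, had 23.2 and 31.2 adjusted reads in SD and 1027 and 774.3 in LD, 32.0-fold lower in SD (log2 -5.0, SE 0.54, adjusted p = 1.98e-07). DFR, the preceding reductase, had 58.0 and 45.5 in SD and 1707 and 1336 in LD, 28.8-fold lower. Each SD library lay far below each LD library for both. The anthocyanin decorating enzymes UF3GT and AT5MAT were 13.2-fold and 16.9-fold lower, and the vacuolar carrier protein GSTF12, whose locus overlaps a neighbour, 13.1-fold lower. The early gene TT4, chalcone synthase, fell less, with 2872 and 2983 in SD and 10351 and 8673 in LD (log2 -1.69). Of the regulators, TT8 was lower (log2 -1.59), while PAP1 had 79.3 and 81.4 in SD and 96.4 and 144.7 in LD and did not pass the test (adjusted p = 0.28). MYB12, an activator of flavonol synthesis, was higher, with 206.3 and 213.2 in SD and 59.4 and 63.3 in LD (log2 1.76).

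Cold and abscisic acid genes rose in 9 of 16 members and fell in 1, with a median of 0.76, and 6 of the rises and the fall were kept in every leave-one-out fit. COR15A, a chloroplast cryoprotective protein, had 1911 and 3351 adjusted reads in SD and 248.1 and 476.5 in LD (log2 2.88, SE 0.43, adjusted p = 1.7e-05). LTI78, also called RD29A, had 9496 and 9895 in SD and 1824 and 3249 in LD (log2 1.99). KIN2 had 3759.9 and 4698 in SD and 731.1 and 1031 in LD (log2 2.27). COR15A and COR15B, and KIN1 and KIN2, are closely related pairs and may share reads. The CBF genes that activate them did not pass the test, and CBF1 was listed at 0 in both SD libraries, with 0.0786 and 29.1 in LD. Heat shock genes are described with the genotype comparison. The COR15A window (chr2:17712281-17712580, minus strand) holds a G-box 28 bases before the start. KIN2 and GolS3 held one with positive changes, and CBF2, COR413IM1 and STZ with negative ones (log2 -0.69, -0.14 and -1.57). LTI65, COR15B, LTI78 and KIN1 held none, with log2 changes of 3.56, 2.33, 1.99 and 1.76.
COR15A: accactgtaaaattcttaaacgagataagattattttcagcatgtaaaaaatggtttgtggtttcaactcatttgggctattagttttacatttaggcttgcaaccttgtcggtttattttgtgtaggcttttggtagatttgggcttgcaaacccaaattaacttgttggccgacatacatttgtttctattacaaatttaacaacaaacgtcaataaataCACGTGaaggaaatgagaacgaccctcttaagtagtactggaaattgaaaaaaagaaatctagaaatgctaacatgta

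Defence genes were lower in SD. Of 19 jasmonate genes none was called higher and 11 were lower, 8 of them in every leave-one-out fit, with a median of -1.03. AOC2, allene oxide cyclase, had 1119.9 and 931.4 adjusted reads in SD and 8214 and 8573 in LD (log2 -3.04, SE 0.19, adjusted p = 6.85e-11). LOX2, the lipoxygenase that begins jasmonate synthesis in chloroplasts, had 6580.2 and 6081 in SD and 24761 and 24235 in LD (log2 -1.95). The antifungal defensin PDF1.2 had 61.8 and 45.5 in SD and 1512 and 819.6 in LD, 20.6-fold lower. PDF1.2b and PDF1.3 were 18.3-fold and 18-fold lower, and as near-identical copies they may share reads with PDF1.2. Of 20 salicylic acid genes 13 were lower, 8 of them in every leave-one-out fit, and none was called higher, with a median of -0.67. SARD1, a transcription factor that activates salicylic acid synthesis, had 44.9 and 38.3 in SD and 173.9 and 133.8 in LD (log2 -1.85). PR5 had 57.1 and 47.4 in SD and 188.1 and 120.7 in LD (log2 -1.52). Of 23 glucosinolate genes 14 were lower and 2 higher, of which 8 lower and 1 higher were kept in every leave-one-out fit, with a median of -0.29, and equal totals left 9 lower. In that list MYB51, the activator of indole glucosinolates, had 264.9 and 303.1 in SD and 812.7 and 825.5 in LD (log2 -1.53).

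Cell division and replication genes were lower in SD by small amounts. Of 24 members 18 were called lower and none higher, with a median of -0.46, and 7 of the calls were kept in every leave-one-out fit. The cytokinesis syntaxin SYP111, known as KNOLLE, had 220.9 and 265.7 adjusted reads in SD and 370.6 and 410.2 in LD (log2 -0.68). The replicative helicase subunit MCM3 had 327.2 and 262.9 in SD and 447.2 and 420.3 in LD (log2 -0.56). Nitrate genes were lower in 7 of 10 members, 3 of them in every leave-one-out fit, and higher in none, with a median of -0.45. Nitrite reductase NIR1 had 7553 and 7839 in SD and 12232 and 12566 in LD (log2 -0.69). WR3, the NRT3.1 partner of high-affinity nitrate transporters, had 463.4 and 611.8 in SD and 1212 and 1219.6 in LD (log2 -1.19). Of 12 iron genes 2 were higher and 4 lower, and the iron transporter IRT1 had 33.9 and 86.0 in SD and 357.5 and 519.8 in LD (log2 -2.97). Of 10 DNA damage genes 1 was higher and 1 lower, and of 8 phosphate genes none was called higher and 2 lower.

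Hormone lists were mixed. Of 17 auxin response genes 4 were higher in SD and 8 lower, of which 4 and 5 were kept in every leave-one-out fit. The auxin-conjugating enzyme GH3.3 had 134.1 and 168.7 adjusted reads in SD and 773.7 and 698.8 in LD (log2 -2.28, SE 0.33, adjusted p = 1.29e-05). BRU6, also called GH3.2, had 167.9 and 187.7 in SD and 622.2 and 555.0 in LD (log2 -1.72). The auxin repressors IAA7 and IAA14 were higher by 0.86 and 0.80. Of 16 gibberellin genes 4 were higher and 3 lower. The biosynthetic GA20OX1 had 143.8 and 137.1 in SD and 77.7 and 59.3 in LD (log2 1.04), and the gibberellin-inactivating ATGA2OX1 had 21.3 and 33.1 in SD and 5.14 and 8.04 in LD (log2 1.89). Of 8 chlorophyll breakdown genes 2 were higher and 4 lower.

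**Figure D3:**
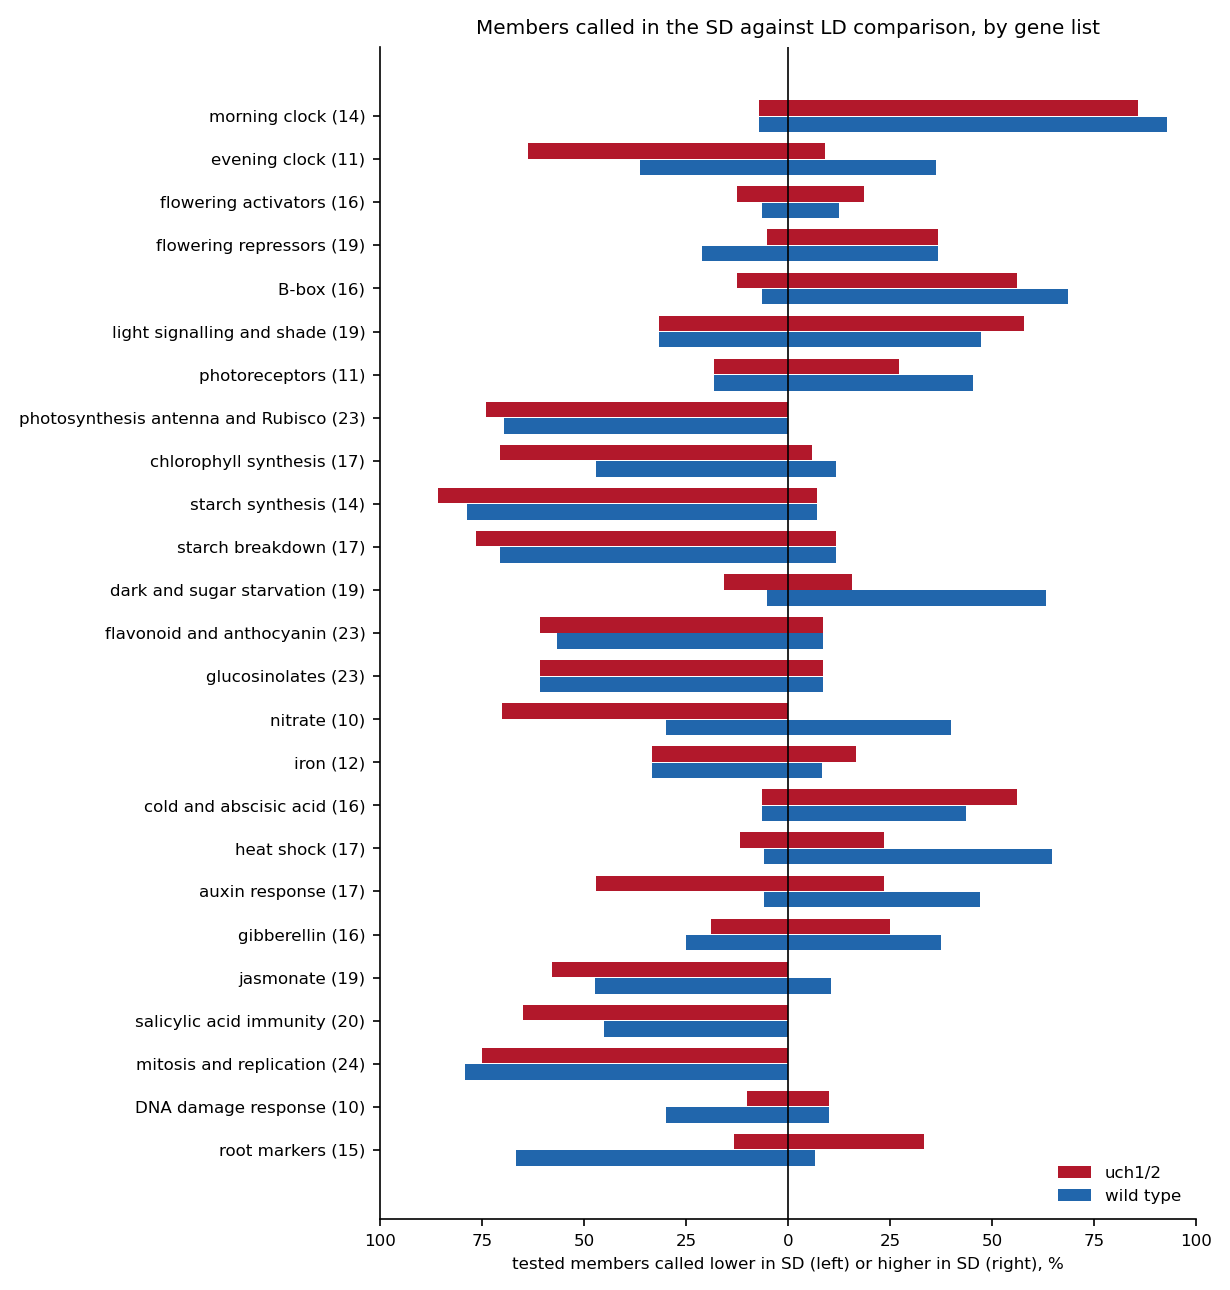
Share of the tested members of each gene list (number tested in brackets) called lower (left) or higher (right) in SD than in LD, in percent, for uch1/2 and wild type. In uch1/2 85.7% of morning clock genes were called higher, and for the heat shock and dark and sugar lists the share called higher is smaller in uch1/2 than in wild type.

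Of the 24 named genes with the largest changes, those higher in SD ranged from 2.64 to 4.88 on the log2 scale and those lower from -5.16 to -3.25. LTP4, a lipid transfer protein of the cell surface, led with 3222 and 2549 adjusted reads in SD and 84.0 and 110.6 in LD, 29.4-fold higher in SD (SE 0.28 on the log2 scale, adjusted p = 1.42e-11). LTP3 is a near-identical neighbour and may share its reads. MRN1, the marneral synthase of a triterpene gene cluster, had 1077 and 1305 in SD and 59.4 and 61.3 in LD, 19.3-fold higher. CYP705A12 had 210.0 and 215.9 in SD and 13.3 and 20.1 in LD, 12.3-fold higher. The linker histone gene HIS1-3 had 875.2 and 1067 in SD and 128.0 and 152.8 in LD, 6.87-fold higher. ABCF2, AIR1, BETA-OHASE 2 and OCT1 completed the 12 that rose, between 6.21-fold and 14.8-fold, and each overlaps an annotated neighbour. Deepest among the named ones that fell was AACT1 (AT5G61160), an agmatine acyltransferase of defence, with 14.9 and 20.2 in SD and 877.7 and 490.8 in LD, 35.8-fold lower. The defensin PDF1.2c, outside the rule for named genes, fell more, with 6.62 and 1.74 in SD and 671.0 and 412.3 in LD (log2 -6.85). AIG1 and ARCK1 were 11.4-fold and 9.49-fold lower, and ARCK1 overlaps a neighbour. All 24 genes were called in the same direction in wild type.

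The day-length response was then compared between uch1/2 and wild type gene by gene. Of the 7895 genes called in uch1/2, 4957 were called in the same direction in wild type, 62.8% of the uch1/2 calls and 51.4% of the wild-type calls. Another 173 genes were called in opposite directions, 2.19% of the uch1/2 calls and 1.79% of the wild-type calls. Across 17264 genes with a mean of at least 50 adjusted reads the log2 fold changes correlated at r = 0.70 between uch1/2 and wild type, where genes are not independent. The standard deviation of these fold changes was 0.51 in uch1/2 and 0.60 in wild type. The difference between both responses (the interaction, uch1/2 minus wild type) was called above 0 for 1208 genes (4.71%) and below 0 for 1288 (5.02%). At least 2-fold interactions numbered 521 above and 273 below 0. Of the 2496 genes, 1165 were called in wild type alone and 623 in uch1/2 alone, and 489 in both in the same direction. The absolute log2 change was smaller in uch1/2 than in wild type for 1633 of these 2496 genes (65.4%). The 2496 include 173 genes called in opposite directions. The matching share over all tested genes was not computed, and the fold changes also spread less in uch1/2, as given above.

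The interaction count depended on single libraries. It was 1436 without uch1/2 SD replicate 2, 1413 without uch1/2 LD replicate 2, 1249 without wild-type SD replicate 2, 1638 without wild-type LD replicate 1 and 1565 without wild-type LD replicate 2. In all 8 leave-one-out fits 352 genes stayed above 0 and 457 below. With the 8 libraries of both genotypes alone 753 genes were called. Scaling to equal totals gave 1525 above and 878 below 0.

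**Figure D4:**
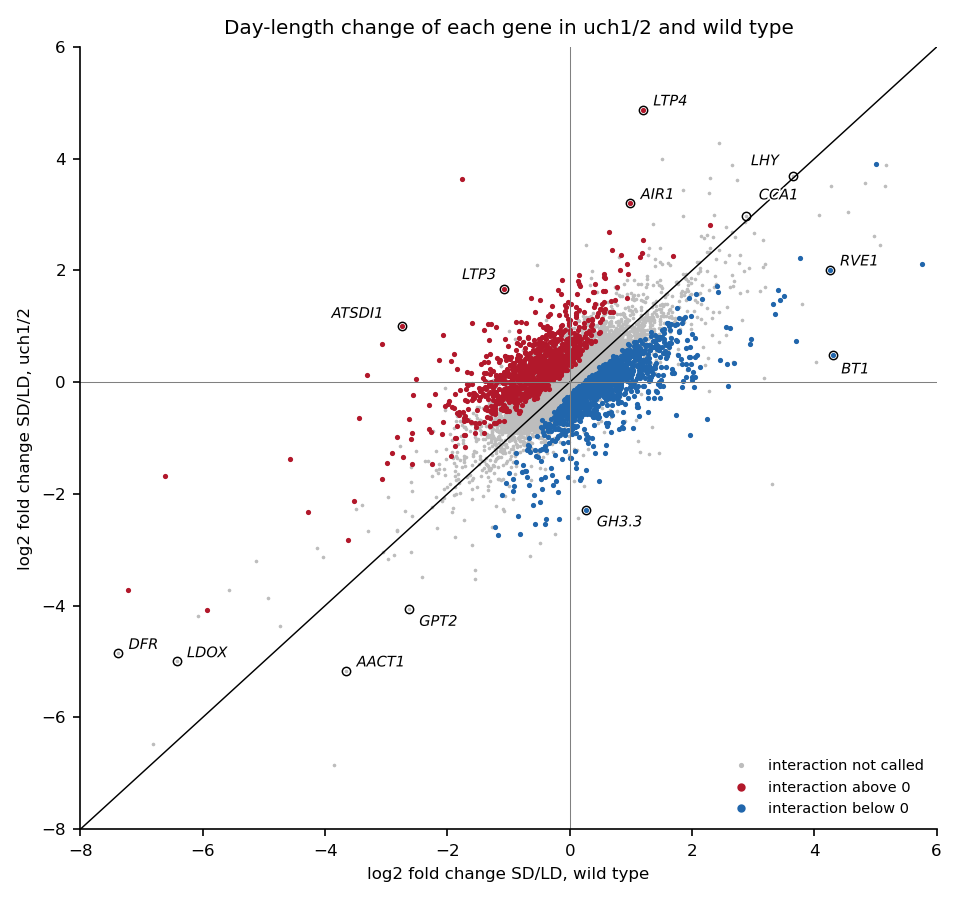
Log2 fold change SD over LD in uch1/2 (vertical) against wild type (horizontal) for genes with a mean of at least 50 adjusted reads. Coloured points are genes with a called interaction, circled ones are named, and the line marks equal change. LHY and CCA1 lie near the line, LTP4 and LTP3 above it, and BT1, RVE1 and GH3.3 below it.

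INO80-FL gave a second set of control libraries, compared after the interaction with wild type had been seen. In INO80-FL 4213 genes (16.4%) were higher in SD and 4044 (15.8%) lower. The interaction of uch1/2 minus INO80-FL was called above 0 for 906 genes (3.53%) and below 0 for 1217 (4.75%). This count was 1180 without uch1/2 SD replicate 1, 1385 without uch1/2 SD replicate 2, 1269 without uch1/2 LD replicate 2, 1215 without INO80-FL SD replicate 1 and 1235 without INO80-FL LD replicate 1. It was 240 with the libraries of both genotypes alone, and equal totals gave 1311 above and 752 below 0. Both interactions share the 4 uch1/2 libraries, so their lists are not independent.

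Interactions among clock genes went both ways. LHY had an interaction of 0.05 (SE 0.12, adjusted p = 0.85) and CCA1 of 0.09 (SE 0.18, adjusted p = 0.83), neither of them called, while uch1/2 had lower levels than wild type in both day lengths. For LHY the wild-type libraries had 18314 and 17701 adjusted reads in SD and 1543 and 1342.5 in LD. RVE8 was called above 0 (interaction 0.51, SE 0.15, adjusted p = 0.032) and LNK2 likewise (interaction 0.57). The RVE8 call was lost without uch1/2 SD replicate 1, uch1/2 SD replicate 2, uch1/2 LD replicate 1, wild-type SD replicate 2, wild-type LD replicate 1 or wild-type LD replicate 2, with values from 0.32 to 0.55. The LNK2 call was lost without uch1/2 SD replicate 1 (0.51), uch1/2 LD replicate 1 (0.44) or wild-type SD replicate 2 (0.53). RVE1, RVE2 and LNK4 were called below 0. RVE1 had 851.2 and 925.0 in SD and 162.0 and 295.5 in LD in uch1/2, against 7623 and 7708 in SD and 446.7 and 361.6 in LD in wild type (interaction -2.24, SE 0.41, adjusted p = 0.0015). RVE2 had an interaction of -1.57 and LNK4 of -0.72. GI, a clock protein that promotes flowering in long days, had 1113 and 1167 in SD and 1279 and 1421 in LD in uch1/2, against 1247 and 1334 in SD and 1017 and 915.5 in LD in wild type. Its libraries ordered oppositely in both genotypes (interaction -0.66, SE 0.10, adjusted p = 0.000389). In the morning clock list 2 of 14 interactions were called above 0 and 5 below, of which none above and 3 below were kept in every leave-one-out fit, and against INO80-FL 3 were above and 3 below. In the evening clock list 1 of 11 was above 0 and 2 below, of which 1 below was kept.

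Light-signalling genes had interactions in both directions. Of 19 members 4 were above 0 and 2 below, of which 1 each was kept in every leave-one-out fit, and against INO80-FL 5 were above and 2 below. PIL1, a bHLH gene known as a shade marker, was above 0 (interaction 1.28). HY5 had 660.1 and 643.8 adjusted reads in SD and 197.6 and 228.2 in LD in uch1/2, against 1518 and 1398 in SD and 270.4 and 271.0 in LD in wild type (interaction -0.81). In the B-box list 6 of 16 interactions were below 0 and none above, of which 1 was kept in every leave-one-out fit, and 2 were below against INO80-FL. Of 11 photoreceptors 4 were below 0 and none above, of which 3 were kept, and 3 were below against INO80-FL. PHYA had an interaction of -0.55, PHYB of -0.55 and CRY3 of -0.61.

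Of 19 genes known to be induced by darkness or sugar shortage, 3 were higher and 3 lower in SD in uch1/2, against 12 higher and 1 lower in wild type. Of the interactions 8 were below 0 and none above, with a median of 0.05 for the uch1/2 response and 0.70 for the wild-type response, and 3 interactions were below 0 against INO80-FL. Of the 8 against wild type 2 were kept in every leave-one-out fit. Quantile normalization left 5 below 0 against wild type. SEN1 had 530.7 and 429.3 adjusted reads in SD and 925.1 and 764.2 in LD in uch1/2, against 1827 and 1581 in SD and 917.8 and 938.1 in LD in wild type. The order of both day lengths was opposite in the genotypes, without overlap (interaction -1.69, SE 0.28, adjusted p = 0.000735). TPS8, a trehalose-phosphate synthase-like regulator, had an interaction of -1.16. In the nitrate list 5 of 10 interactions were below 0 and none above, both against wild type and against INO80-FL, with 3 against wild type after quantile normalization and 4 kept in every leave-one-out fit. BT1 and BT2 are scaffold proteins that respond to nitrate, sugar and light. BT1 had 1381 and 2430.4 in SD and 882.9 and 1921 in LD in uch1/2, against 9171 and 9427 in SD and 551.8 and 400.4 in LD in wild type. The uch1/2 libraries of both day lengths overlapped, while those of wild type differed more than 10-fold (interaction -3.81, SE 0.55, adjusted p = 0.00016). BT2 had an interaction of -2.91.

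Heat shock genes had interactions below 0. Of 17 members 4 were higher and 2 lower in uch1/2 with a median of 0, and none of these calls was kept in every leave-one-out fit. In INO80-FL 8 were higher and 1 lower with a median of 0.92, and in wild type 11 were higher and 1 lower with a median of 1.84. Of the interactions 8 were below 0 and none above, of which 4 were kept in every leave-one-out fit, and 5 were below 0 against INO80-FL. HSP101, a protein disaggregase, had 489.6 and 401.0 adjusted reads in SD and 282.7 and 375.0 in LD in uch1/2, against 1023 and 1052 in SD and 254.9 and 242.6 in LD in wild type (interaction -1.61, SE 0.23, adjusted p = 0.00015). The chaperone HSP90.1 had 861.4 and 673.3 in SD and 655.3 and 881.7 in LD in uch1/2, against 867.6 and 1021 in SD and 354.8 and 330.5 in LD in wild type. Its uch1/2 libraries overlapped between day lengths and lay above the wild-type LD ones (interaction -1.45, SE 0.25, adjusted p = 0.00103). MBF1C, a coactivator of the heat response, had an interaction of -1.83, and it overlaps annotated neighbours.

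Auxin response genes also had interactions below 0. Of 17 members 4 were higher in SD and 8 lower in uch1/2, against 8 higher and 1 lower in wild type, and 7 interactions were below 0 and none above, of which 4 were kept in every leave-one-out fit. Against INO80-FL 5 were below 0. IAA1 had 309.9 and 323.0 adjusted reads in SD and 460.8 and 594.2 in LD in uch1/2, against 500.1 and 548.8 in SD and 351.5 and 326.1 in LD in wild type. The day lengths were ordered oppositely, with no overlap within either genotype (interaction -1.35, SE 0.20, adjusted p = 0.000198). IAA2 had 1632 and 1777 in SD and 2384 and 2194 in LD in uch1/2, against 2156 and 2237 in SD and 1549 and 1658 in LD in wild type (interaction -0.88). GH3.3 differed in LD, where uch1/2 had 773.7 and 698.8 and wild type 101.1 and 96.6 (interaction -2.55). IAA5, which overlaps a neighbour, had an interaction of -3.50.

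**Figure D5:**
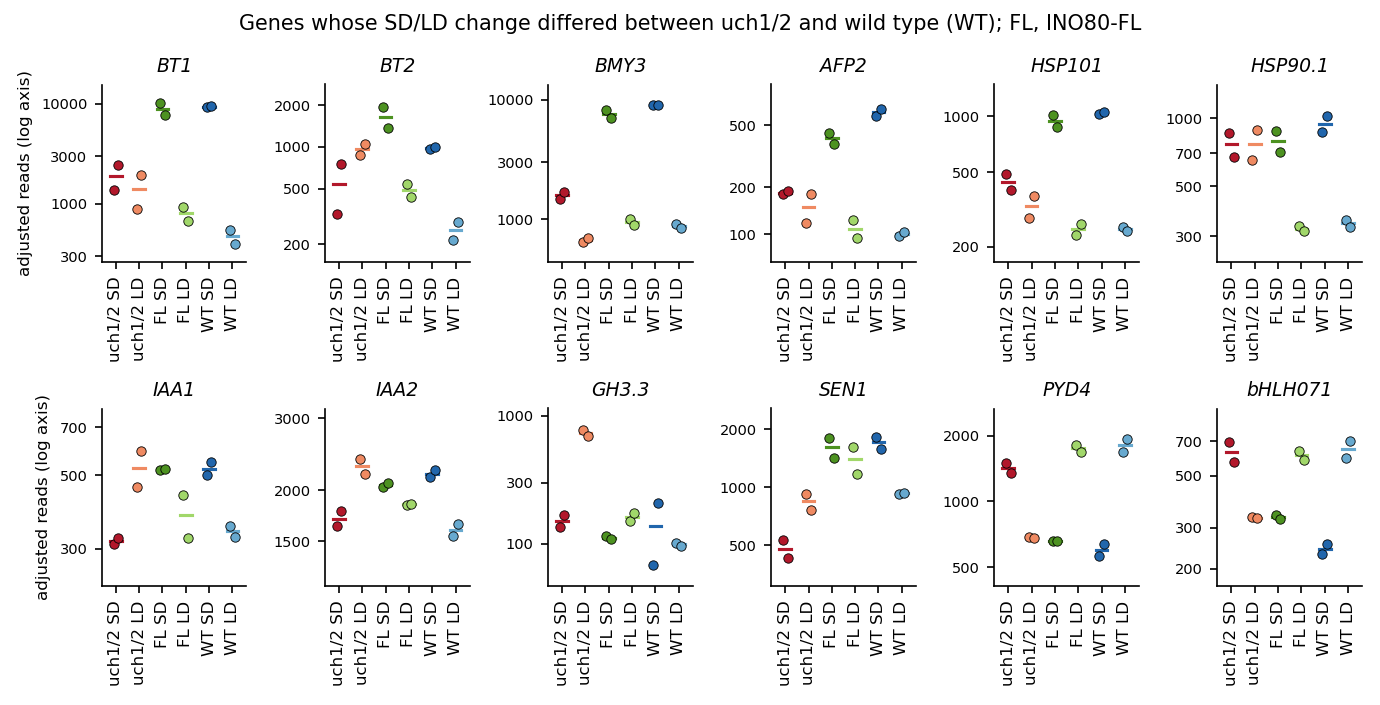
Adjusted reads (log axis) of 12 genes in each library of uch1/2, INO80-FL (FL) and wild type (WT), in SD and LD. Points are libraries and bars the mean of 2. BT1, BMY3, HSP101 and HSP90.1 differ between SD and LD in FL and WT by more than in uch1/2, and IAA1 and IAA2 are ordered oppositely in uch1/2. Among the genotypes plotted PYD4 and bHLH071 are higher in SD in uch1/2 alone. In ino80, not plotted, both were also called higher in SD (log2 1.28 and 0.62). In nfrkb1/2/3, not plotted, bHLH071 was called higher (log2 1.23) and PYD4 did not pass the test.

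The 10 named genes with the largest interactions below 0 also held AFP2, BEE1, BMY3, MYB13, TMAC2, CGA1 and UGT74E2. BMY3, a beta-amylase also called BAM9, had 1477.5 and 1690 adjusted reads in SD and 651.0 and 702.8 in LD in uch1/2, against 9040.5 and 9040.9 in SD and 914.2 and 855.0 in LD in wild type (interaction -2.13, SE 0.17, adjusted p = 3.38e-07). BMY3 overlaps a neighbour. CGA1, a GATA factor of chloroplast development, had 130.3 and 178.0 in SD and 47.1 and 56.3 in LD in uch1/2, against 1385 and 1295 in SD and 140.1 and 98.3 in LD in wild type (interaction -1.96). BEE1, a brassinosteroid-induced bHLH factor, had 81.4 and 65.6 in SD and 283.4 and 222.2 in LD in uch1/2, against 246.4 and 261.6 in SD and 187.8 and 174.6 in LD in wild type (interaction -2.25). Of these 10 genes 9 were also called against INO80-FL, IAA5 being the exception.

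NUDT24, a Nudix hydrolase, had 15 and 10.9 adjusted reads in SD and 50.1 and 37.2 in LD in uch1/2, against 0.00557 and 1.06 in SD and 103.3 and 189.7 in LD in wild type (interaction 4.94, SE 0.86, adjusted p = 0.000971). Its wild-type SD libraries were at the floor, so the size depends on the pseudocount. For NUDT24 (AT5G19470), interaction with wild type came to 5.59 at a pseudocount of 0.5 and 3.29 at 5. LTP4 had 3222 and 2549 adjusted reads in SD and 84.0 and 110.6 in LD in uch1/2, against 413.8 and 609.0 in SD and 223.0 and 214.1 in LD in wild type (interaction 3.68, SE 0.39, adjusted p = 9.32e-06). LTP3 had 1761 and 1971 in SD and 580.3 and 598.3 in LD in uch1/2, against 251.5 and 241.5 in SD and 449.4 and 605.8 in LD in wild type (interaction 2.74). ATSDI1 and LSU1, genes known to be induced by sulphur deficiency, had interactions of 3.74 and 2.57. ATSDI1 had 1753 and 1541 in SD and 725.9 and 925.0 in LD in uch1/2, against 276.3 and 216.2 in SD and 1487 and 1797 in LD in wild type. Its day lengths were ordered oppositely in both genotypes without overlap. PYD4, an aminotransferase of pyrimidine catabolism, had an interaction of 2.65 and the bHLH factor bHLH071 of 2.33. Of the 10 named genes 7 were also called above 0 against INO80-FL, beside 3.53% of all tested genes, while ORA59, UMAMIT14 and ST4B were not. These 10 too were picked with the same 4 uch1/2 libraries, so the overlap is not an independent check. In the glucosinolate list 7 of 23 interactions were above 0 and 1 below, of which 2 and 1 were kept in every leave-one-out fit, and 6 were above and 1 below against INO80-FL. There BAT5, which imports precursors into plastids, had 817.0 and 792.0 in SD and 955.0 and 1039.7 in LD in uch1/2, against 550.9 and 494.8 in SD and 1406 and 1225 in LD in wild type (interaction 1.02).

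Markers of other tissues were read beside these results. Of 15 root markers 7 interactions were above 0 and 1 below against wild type, of which 3 and 1 were kept in every leave-one-out fit, and none above and 1 below against INO80-FL. In uch1/2 5 were higher in SD and 2 lower, in INO80-FL 1 higher and 2 lower, and in wild type 1 higher and 10 lower. RHD6, a root hair factor, had 140.8 and 155.7 adjusted reads in SD and 89.1 and 94.5 in LD in uch1/2, against 73.1 and 74.7 in SD and 106.8 and 117.3 in LD in wild type. The summed level of the list was 5544 and 6311 in SD and 5508 and 5490 in LD in uch1/2, against 5219 and 4785 in SD and 5253 and 4768 in LD in wild type. All 15 were read in each of the 4 uch1/2 libraries. The share of roots in the libraries and the part it has in the interactions were not tested. Seed storage markers summed to 151.4 and 24.0 in SD and 16.3 and 432.9 in LD in uch1/2, against 19.8 and 20.3 in SD and 3.90 and 48.4 in LD in wild type, and none of 11 was called. Of 8 floral organ markers SEP4 was called higher in SD in uch1/2 and SEP3 lower, SEP3 with 274.3 and 171.0 in SD and 817.6 and 642.5 in LD.

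Few differences in the response were called between uch1/2 and the other mutants. In ino80 8422 genes (32.8%) and in nfrkb1/2/3 8841 genes (34.5%) were called between SD and LD. Of the uch1/2 calls, 5867 had the same direction in ino80, 74.3% of the uch1/2 calls and 69.7% of the ino80 calls, and 2 the opposite one. For nfrkb1/2/3 5829 were shared, 73.8% of the uch1/2 calls and 65.9% of the nfrkb1/2/3 calls, and 16 were opposite. The correlations over the 17264 genes were 0.90 with ino80 and 0.89 with nfrkb1/2/3. No gene (0%) had a called interaction against ino80 in limma, with 1666 genes at an unadjusted p under 0.05, and 2 genes (0.0078%) had one against nfrkb1/2/3, with 2551 at an unadjusted p under 0.05. With the libraries of each pair fitted alone these counts were 59 and 67. Leaving out 1 library gave up to 1 call against ino80, without ino80 LD replicate 1. Against nfrkb1/2/3 it gave 7 calls without uch1/2 SD replicate 1, without uch1/2 LD replicate 1 or without nfrkb1/2/3 SD replicate 2, and 8 without nfrkb1/2/3 LD replicate 2. It gave 1 call without uch1/2 LD replicate 2 and 0 without uch1/2 SD replicate 2. A difference that misses the threshold at 2 libraries per group does not show that the responses were alike.

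The SD level of uch1/2 against wild type was also measured in the second table with other libraries. In the first table the mutant had 4644 genes (18.1%) higher and 5290 (20.6%) lower than wild type in SD. Of 24458 genes tested in the second, 1745 (7.13%) were higher and 1803 (7.37%) lower, and equal totals gave 2308 and 1329. The total of 3548 calls was 1671 without uch1/2 replicate 3, 2021 without uch1/2 replicate 4, 1663 without wild-type replicate 3 and 1975 without wild-type replicate 4. Of genes with an interaction above 0 and an SD difference called in the first table, 737 of 910 (81.0%) had the same sign in the second and 319 were called. Of those with an interaction below 0 it was 625 of 982 (63.6%), with 106 called, beside 82.5% same-sign among all 9882 genes with a called SD difference. All 10 named genes with interactions below 0 were lower in uch1/2 in SD in the first table, and none was called in the second, where log2 differences ran from -0.76 to 0.51. BT1 had 1648 and 2844 adjusted reads in uch1/2 and 1495 and 2479 in wild type there, with overlapping groups. The wild-type SD levels of these genes were also lower in the second table, as far as levels normalized apart can be compared. In wild type in SD, RVE1 had 7623 and 7708 in the first table and 39.0 and 69.3 in the second. BMY3 had 9040.5 and 9040.9 in the first and 254.6 and 274.8 in the second. The part that this change of level has in the missing calls and in the shares of same sign was not tested. Of the 10 named genes above 0 all were higher in uch1/2 in SD in the first table and 3 were called higher in the second, where log2 differences ran from -2.20 to 2.00. NUDT24 at -2.20 and bHLH071 at -0.47 had the opposite sign there, without passing the test. LTP4 had 862.9 and 744.7 in uch1/2 and 164.7 and 243.0 in wild type (log2 2.00, adjusted p = 0.017), LTP3 was higher by 1.49 and UMAMIT14, an amino acid transporter, by 1.58. Heat shock genes gave 8 lower and 2 higher in the first table, and none lower and 4 higher in the second.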

How the data were processed

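RNA of whole Arabidopsis seedlings was sequenced as single-end 50-base reads. Per the submitters' processing notes, HISAT2 2.2.0, edgeR and TAIR10 were named, with no role stated. The deposited tables hold a signal, read counts that the authors adjusted to a common library size, and not whole reads, so limma was used on log2(value + 1) in place of a count test. Genes reaching 1 adjusted read in 2 or more libraries entered the test. R 4.3.3 and limma 3.58.1 with a mean-variance trend were used, with both tables fitted apart, with Benjamini-Hochberg adjustment over all genes tested and a threshold of 0.05. Scripts were tested on simulated data. The named genes were the 12 largest log2 changes per direction for SD against LD and the 10 largest per direction for the interaction. They were taken among called genes with a symbol and a group mean of at least 50. Their call held when any library was left out, and their fold then moved by at most 1.5 times. For SD against LD, the uch1/2 libraries of both day lengths also did not overlap. Of the 25638 genes tested 9985 had a symbol. Genes named beyond these and beyond the largest called list members were picked once their values had been seen. The members and the gene lists were chosen with earlier results of these data known. Members of the lists that were not tested, SPL15, BBX2, LHCB1.5, MYB113, MYC2, SMR5 and SESA3, were not analysed here. Promoter windows came from RefSeq (TAIR10.1). The alternatives were the pseudocount, the filter, the scaling, the libraries fitted, the trend, a replicate block and leaving out each library.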

Additional observations from a re-analysis of the deposited data

Results flagged for a closer look

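The 20 genes named for their interaction differed between uch1/2 and wild type in their SD over LD change, by limma's test of the difference of both log2 fold changes with Benjamini-Hochberg adjustment. They were the 10 largest in each direction among called genes with a symbol and a group mean of at least 50 whose call held when any of the 8 libraries was left out and whose fold then moved by at most 1.5 times, so some called interactions outside this rule were larger. Above 0 were NUDT24 by 4.94, ATSDI1 by 3.74, LTP4 by 3.68, ORA59 by 3.2, UMAMIT14 by 2.80, LTP3 by 2.74, PYD4 by 2.65, LSU1 by 2.57, ST4B by 2.39 and bHLH071 by 2.33. Below 0 were BT1 at -3.81, IAA5 at -3.50, BEE1 at -2.25, AFP2 at -2.24, RVE1 at -2.24, BMY3 at -2.13, MYB13 at -2.06, TMAC2 at -1.97, CGA1 at -1.96 and UGT74E2 at -1.91. With 2 libraries per group no sample could be tested as standing apart from its group.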

How the results depend on the processing

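The SD against LD count in uch1/2 was 7895 and moved to 1777 with its 4 libraries alone, and ran from 5796 to 6469 when 1 library was left out. The interaction with wild type, 2496, fell to 753 with the 8 libraries alone and ran from 1249 to 2306. The interaction with INO80-FL, 2123, was 240 with the libraries compared alone and ran from 1180 to 1827. The interaction with ino80 was 0, but 2 with no filter, 1 with no mean-variance trend, 59 with the libraries compared alone and 0 to 1 when 1 library was left out. The interaction with nfrkb1/2/3 was 2, but 13 with a filter of at least 10, 5 after quantile normalization, 67 with the libraries compared alone and 0 to 8 when 1 library was left out. The count of uch1/2 against wild type in SD in the second table, 3548, ran from 1663 to 2021. Under quantile normalization the log2 changes of CAB2, CAB3 and LHCA2 turned to 0.24, 0.34 and 0.15, and the cause was not tested. With the repeat number as a replicate block the counts were 7960 for uch1/2, 2558 for the interaction with wild type and 2191 for that with INO80-FL. Across genes, the deviations of same-numbered libraries correlated at -0.096 between uch1/2 SD and LD, within -0.096 to 0.107 over 6 pairs of groups. The labels do not say what the repeat numbers stand for. A batch that acts on few genes would not show in such a correlation. With 2 libraries per group, small changes of low genes were not detectable at this depth.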

Other observations

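Families of cell-wall, cell-surface and defence proteins were grouped by product name after the results were seen, and an interaction above 0 means a more positive SD over LD change in uch1/2 than in wild type. Over all tested genes 15.4% were higher and 15.4% lower in SD in uch1/2, against 18.3% higher and 19.3% lower in wild type. Interactions over all tested genes were above 0 for 4.71% and below 0 for 5.02%. Of 85 tested genes with lipid transfer protein in their product name, 28 (32.9%) were higher in SD in uch1/2 and 6 lower. In wild type 11 were higher and 13 lower, and 18 interactions were above 0 and none below. The 85 take in broader superfamily names that also cover protease inhibitors and seed storage proteins. Of 69 class III peroxidases 15 were higher and 6 lower in uch1/2, against 8 higher and 23 lower in wild type, with 16 interactions above 0 and none below. Of 27 xyloglucan endotransglucosylases 10 were higher and 2 lower in uch1/2, against 9 higher and 8 lower in wild type, with 5 interactions above 0 and 3 below. Of 26 expansins 7 were higher and 5 lower in uch1/2, against 5 higher and 9 lower in wild type, with 6 interactions above 0 and 1 below. Of 5 plant defensins 4 were lower in both genotypes and none was higher, with no interaction above 0 and 1 below. Of 15 root markers 7 interactions with wild type were above 0 and 1 below, while against INO80-FL none was above 0 and 1 was below. The families were not compared with INO80-FL, and the part of the root markers in these counts was not tested.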
